A study of Mus musculus with 4 samples.

Results

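The immunity-related GTPases (IRGs) of the mouse are a family of interferon-inducible proteins, and 7 of their genes were followed here in induced regulatory T (iTreg) cells cultured with or without added iron: Irgm1, Irgm2, Igtp, Iigp1, Ifi47, Tgtp1 and Tgtp2. They are 7 of the 47729 gene rows of the count table, and all 7 were among the 13732 genes with enough reads to be tested. The members were chosen by symbol and with their measured difference between FeSO4 and Mock already known, so that difference is described below without a test. The cells were CD4 T cells of C57BL/6 mice, from the spleen per the labels and from spleen and lymph nodes per the methods, activated as naive cells with antibodies against CD3 and CD28. Every culture, Mock included, contained 5 ng/mL TGF-β, 100 U/mL of IL-2 and, at 5 µg/mL, an antibody that blocks IL-4 and another that blocks IFN-γ. The FeSO4 group received ferrous sulfate at 50 µM for 4 days and the Mock group received PBS over the same time. RNA was sequenced from 2 libraries per group, called Mock 1, Mock 2, FeSO4 1 and FeSO4 2 here, which the methods describe as 2 pairs that came from 2 separate experiments.

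IRG proteins bind GTP and form part of the cell-autonomous defence against intracellular bacteria and parasites, chiefly by acting on the membrane of the vacuole that holds the microbe. The effector members (Iigp1, Ifi47, Tgtp1 and Tgtp2, also known as Irga6, Irgd and Irgb6) load onto that membrane. The regulatory members (Irgm1, Irgm2 and Igtp, which is also called Irgm3) sit on the cell's own membranes and hold the effectors in an inactive state there. Transcription of the family is classically driven by IFN-γ, through gamma-activated sites (GAS) and, with interferon-regulatory factors, through interferon-stimulated response elements (ISRE). In T cells, Irgm1 is known for protecting activated cells from death during IFN-γ responses.

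The promoters of the members show how alike some of these genes are. RefSeq promoter windows (GRCm38.p6, 250 bases before to 50 bases after the start site) were matched for 6 of the 7 members, and Iigp1 had no entry. In 4 of the 6 (Igtp, Irgm2, Tgtp1 and Tgtp2) the GAS letters TTCNNNGAA were followed, after 2 bases, by the ISRE letters GAAANNGAAA. Gm12185, a further IRG gene from the same stretch of the genome as Tgtp1, carried the same arrangement. The windows below run 5′ to 3′ on the gene's strand, with the matched letters in capitals, and are shown because the same block recurs in them. As 4 of these 5 genes are members, chosen for being higher with FeSO4, the block cannot be tied to that difference.
Igtp: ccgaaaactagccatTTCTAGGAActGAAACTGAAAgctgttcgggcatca
Irgm2: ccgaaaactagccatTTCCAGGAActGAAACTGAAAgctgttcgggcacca
Tgtp1: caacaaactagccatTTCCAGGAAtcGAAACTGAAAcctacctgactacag
Tgtp2: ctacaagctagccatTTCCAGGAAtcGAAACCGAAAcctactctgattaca
Gm12185: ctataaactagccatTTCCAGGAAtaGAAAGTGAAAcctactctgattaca
These lie at chr11:58199496-58199546 (plus strand), chr11:58214887-58214937 (plus), chr11:48992299-48992349 (minus), chr11:49064258-49064308 (minus) and chr11:48927233-48927283 (minus), in the order printed. The GAS match began 45 bases before the start site in Igtp and 88 bases before it in Tgtp1, with the others in between. Irgm1 held no GAS match and held 2 overlapping ISRE matches, which end 15 bases before its start. Gm12250, the gene of the effector Irgb10, held a GAS match between 2 ISRE matches that read on the opposite strand.
Irgm1: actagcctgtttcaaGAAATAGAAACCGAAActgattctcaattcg
Gm12250: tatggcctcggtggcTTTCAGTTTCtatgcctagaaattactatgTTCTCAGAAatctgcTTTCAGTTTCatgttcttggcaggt
These lie at chr11:48871420-48871465 (minus strand) and chr11:58183737-58183821 (plus strand). The window of Ifi47, at chr11:49076337-49076636 (plus strand), contained neither set of letters and is shown whole for comparison.
Ifi47: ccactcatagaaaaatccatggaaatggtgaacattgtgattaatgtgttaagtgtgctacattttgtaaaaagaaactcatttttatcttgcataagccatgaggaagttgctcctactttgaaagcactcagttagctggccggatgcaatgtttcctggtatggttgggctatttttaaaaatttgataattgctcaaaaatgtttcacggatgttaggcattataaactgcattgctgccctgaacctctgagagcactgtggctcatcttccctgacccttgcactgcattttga

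Against all 32851 promoter windows of the same length, searched on both strands, TTCNNNGAA was present in 8.3%, GAAANNGAAA in 3.44%, and both in 0.454%. The joint block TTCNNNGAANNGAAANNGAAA was present in 5 windows (0.0152%), and these were the windows of Igtp, Irgm2, Tgtp1, Tgtp2 and Gm12185. The block was written down after the members' promoters had been read, it contains the GAS and ISRE letters by construction, and the genes that carry it belong to 1 family, so its rarity is given as a description only. Outside the IRG family, 11.7% of the 8637 tested genes with a promoter window were called higher in FeSO4. The share was 11.3% of 726 genes with the GAS letters and 15.7% of 312 genes with the ISRE letters. A match is a run of letters and not a measured binding site.

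**Figure D1:**
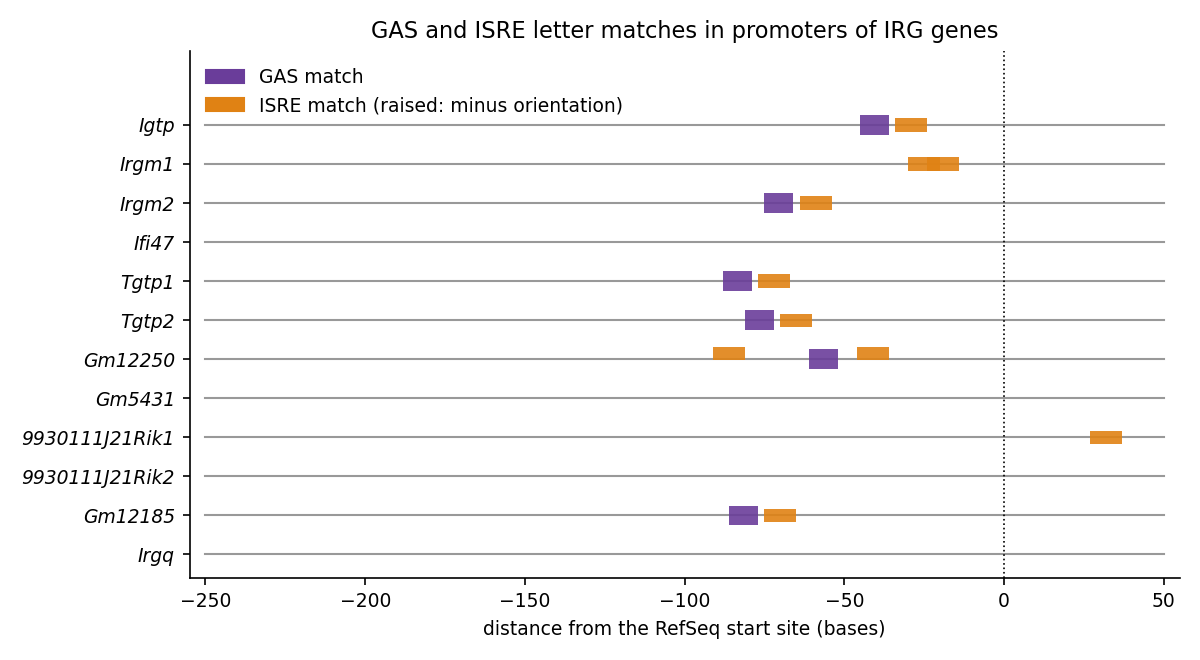
GAS (purple) and ISRE (orange, raised where it reads on the opposite strand) letter matches in the promoter windows of 12 IRG genes, plotted by distance in bases from the RefSeq start site. In Igtp, Irgm2, Tgtp1, Tgtp2 and Gm12185 a GAS match lies directly before an ISRE match, and Ifi47 has no match.

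The libraries held between 35183187 and 40859178 reads in gene rows, and levels are given as CPM, counts scaled by library size after TMM adjustment (a factor from the bulk of genes). On that scale 3 reads, the limit that a count of 0 allows, correspond to 0.0717 to 0.0876 CPM. All 8 markers of CD4 T and Treg cells had reads in every library. Sums over a marker list are given as unscaled CPM, by library size without the TMM adjustment, and single genes as scaled CPM. The 8 markers summed to 3871 to 4147 unscaled CPM in Mock and 3814 to 4094 in FeSO4, and the groups overlapped. TMM factors were 1.022 and 1.024 in Mock and 0.9741 and 0.9813 in FeSO4, so scaling lowers the Mock sums and raises the FeSO4 sums. The 4 general T cell markers were higher in both FeSO4 libraries, for example Cd4 (631 and 606 CPM in Mock, 671 and 683 with FeSO4) and Cd3g (368 and 349, then 505 and 512). Of the 4 Treg markers, Foxp3 (587 and 693, then 376 and 472) and Ikzf2 (56.3 and 80.2, then 33.3 and 45.8) were lower in both FeSO4 libraries, and in the other 2 the groups overlapped. Of other cell types, the sum of the B cell list (7 of 7 genes measured) came nearly all from Ighm. It was 166 to 176 unscaled CPM in Mock and 241 to 272 in FeSO4. Ms4a1 and Pax5 had 0 or 1 count in each library. Cd79b (0.567 and 0.694 CPM in Mock, 0.350 and 0.513 with FeSO4) and Ebf1 (0.468 and 0.311, then 0.234 and 0.243) were lower in both FeSO4 libraries. Cd79a overlapped between the groups. Igkc had 156 counts in Mock 1, 5 in Mock 2, 3 in FeSO4 1 and 8 in FeSO4 2. The NK cell list (6 of 6) summed to 1.69 to 1.86 unscaled CPM in Mock and 2.76 to 3.35 in FeSO4. In it, 2 genes were higher in both FeSO4 libraries, among them Klre1 with 0 and 0 counts in Mock and 1 and 2 in FeSO4. The other 4 overlapped, namely Eomes (38 and 44 counts in Mock, 42 and 19 in FeSO4) and Ncr1, Klrb1c and Klra8, which were at 0. The erythroid list (4 of 6) summed to 21.4 to 26.4 unscaled CPM in Mock and 33.8 to 38.7 in FeSO4. The myeloid list (11 of 11) summed to 90.1 to 101 unscaled CPM in Mock and 113 to 116 in FeSO4, nearly all from Cst3. Clec9a was at 0, and 7 genes had 10 counts or fewer in each library. Lyz2 had 164 counts in Mock 1, 8 in Mock 2 and 0 in FeSO4. The part of any of these markers' cells in the results was not tested. In such bulk libraries, a change in the number of cells that express a gene and a change in RNA per cell cannot be told apart.

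The regulatory members were all higher with FeSO4. Igtp was at 115.6 CPM in Mock 1, 119.3 in Mock 2, 229.4 in FeSO4 1 and 202.5 in FeSO4 2 (4692, 4988, 7858 and 7497 counts). Both FeSO4 libraries lay far above both Mock libraries, which differed little from each other. The fitted log2 fold change of Igtp was 0.88 ± 0.07 (SE, n = 2 per group), or 1.84-fold. Irgm1, the regulator tied to T cell survival, was at 43.5 CPM in Mock 1, 38.0 in Mock 2, 93.8 in FeSO4 1 and 74.1 in FeSO4 2. Its lowest FeSO4 library was 1.70 times its highest Mock library, and the FeSO4 libraries differed from each other more than the Mock libraries did. The fitted change was 1.04 ± 0.11 on the log2 scale.

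Irgm2 had the smallest fitted difference of the regulators. Mock 1 and Mock 2 held 17.6 and 19.4 CPM, and FeSO4 1 and FeSO4 2 held 30.1 and 28.9. The pairs of libraries were close within each group and did not overlap between groups. The log2 fold change was 0.67 ± 0.10, or 1.59-fold.

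Among the effectors, Iigp1 stood apart by the size of its difference. The Mock libraries held 5.18 and 6.39 CPM (210 and 267 counts) and the FeSO4 libraries 40.5 and 30.0 CPM (1387 and 1112 counts). The groups were far apart, and the FeSO4 libraries also differed from each other. The lowest FeSO4 library held 4.70 times the CPM of the highest Mock library, and the highest FeSO4 library 7.82 times that of the lowest Mock library. The log2 fold change was 2.61 ± 0.15, or 6.09-fold, which placed Iigp1 in position 21 from the top among the 13732 tested genes.

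Ifi47, the effector whose window holds neither set of letters, was also higher with FeSO4. Mock 1 and Mock 2 held 125.7 and 124.8 CPM, against 213.5 and 188.7 in FeSO4 1 and FeSO4 2. The Mock libraries were nearly equal, and the lowest FeSO4 library was 1.501 times the highest of them. The log2 fold change of 0.68 ± 0.07 was close to that of Irgm2. The exons of Ifi47 overlap those of Olfr56, an olfactory receptor gene, which had 58 and 38 counts in Mock and 97 and 81 in FeSO4 (log2 fold change 1.10 ± 0.36, adjusted p = 0.045), a call that was lost under 7 of the alternatives. Reads in the overlap cannot be given to either gene without knowing how the counting treated strand.

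Tgtp1 and Tgtp2 are near-identical copies that encode the effector Irgb6. For Tgtp1 the Mock libraries held 12.4 and 14.0 CPM and the FeSO4 libraries 19.1 and 22.04. For Tgtp2 the values were 13.2 and 12.7 CPM without iron and 29.1 and 23.8 with it. FeSO4 1 was the lower FeSO4 library for Tgtp1 and the higher one for Tgtp2 and for the other 5 members. The log2 fold changes were 0.64 ± 0.12 for Tgtp1 and 1.03 ± 0.12 for Tgtp2. Their coding sequences were identical at 99.68% of 1248 bases, and 85.3% of the 50-base windows of Tgtp1 transcripts and 90.6% of those of Tgtp2 also occur in another gene. Only reads that could be placed in 1 position were counted, so the split between the copies is uncertain. With the counts of both genes added, the log2 fold change was 0.84 ± 0.09.

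**Figure D2:**
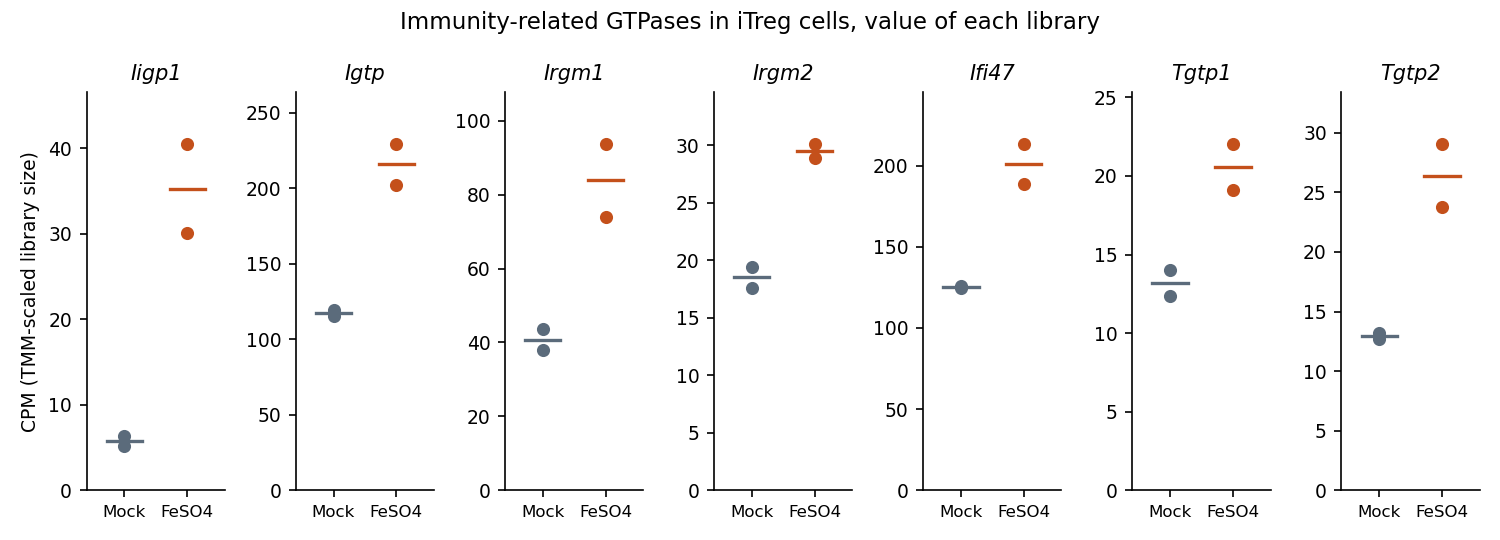
CPM (scaled library size, linear axes from 0, one scale per gene) of the 7 IRG members in 2 Mock and 2 FeSO4 libraries, with points for libraries and bars for group means. In each panel both FeSO4 points lie above both Mock points, with the widest gap for Iigp1 (5.18 and 6.39 against 40.5 and 30.0).

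For all 7 members both FeSO4 libraries lay above both Mock libraries, as they did for 30.1% of all tested genes. All 7 were also among the 1455 genes that edgeR called higher with FeSO4 (adjusted p under 0.05), which is 10.6% of the genes tested. Because the members were chosen on this contrast, neither count says anything more about them. Over all genes, 54.4% of calls were in the direction of FeSO4, against 35.0% (939 higher, 1748 lower) when libraries were scaled by size only, which moved the median log2 fold change of all genes by -0.06. The median of the members was 0.88, with a range of 0.64 to 2.61, beside a median of 0.00 over all tested genes.

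Summed over the 7 members, Mock 1 and Mock 2 held 333.2 and 334.6 CPM, and FeSO4 1 and FeSO4 2 held 655.4 and 570.0. The Mock sums were almost equal and the FeSO4 sums were not. Igtp and Ifi47 together made up 72.4% and 73.0% of the sum in Mock and 67.6% and 68.6% in FeSO4. The share of Iigp1 was 1.55% and 1.91% in Mock and 6.18% and 5.27% in FeSO4, so that the makeup of the family's transcripts moved towards Iigp1.

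Levels of different genes were compared per length, as RPKM (scaled CPM per kilobase of exon, with exon lengths of GENCODE M1). In Mock, Igtp (58.1 ± 1.27 RPKM, SD, n = 2) and Ifi47 (54.1 ± 0.27) were far above the rest, at percentiles 91.6 and 90.9 of all tested genes. Irgm1 (7.01 ± 0.68), Irgm2 (5.33 ± 0.37), Tgtp2 (4.41 ± 0.12) and Tgtp1 (4.12 ± 0.36) followed, and the libraries of the last 2 overlapped. Iigp1 was lowest at 1.85 ± 0.27 RPKM, at percentile 27.0.

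With FeSO4 the order at the top was the same, with Igtp at 106.8 ± 9.38 RPKM, Ifi47 at 86.8 ± 7.56 and Irgm1 at 14.4 ± 2.40. Iigp1 came next at 11.3 ± 2.37 RPKM, and its libraries (13.0 and 9.63) overlapped those of Irgm1 (16.1 and 12.8) and of Tgtp2 (9.90 and 8.08). Irgm2 (8.49 ± 0.25) overlapped Tgtp2, and Tgtp1 was lowest at 6.42 ± 0.65. In RPKM gained, the difference was largest for Igtp (48.7) and Ifi47 (32.7) and was 9.45 for Iigp1, so the gene with the largest fold change was not the one that gained most transcript.

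**Figure D3:**
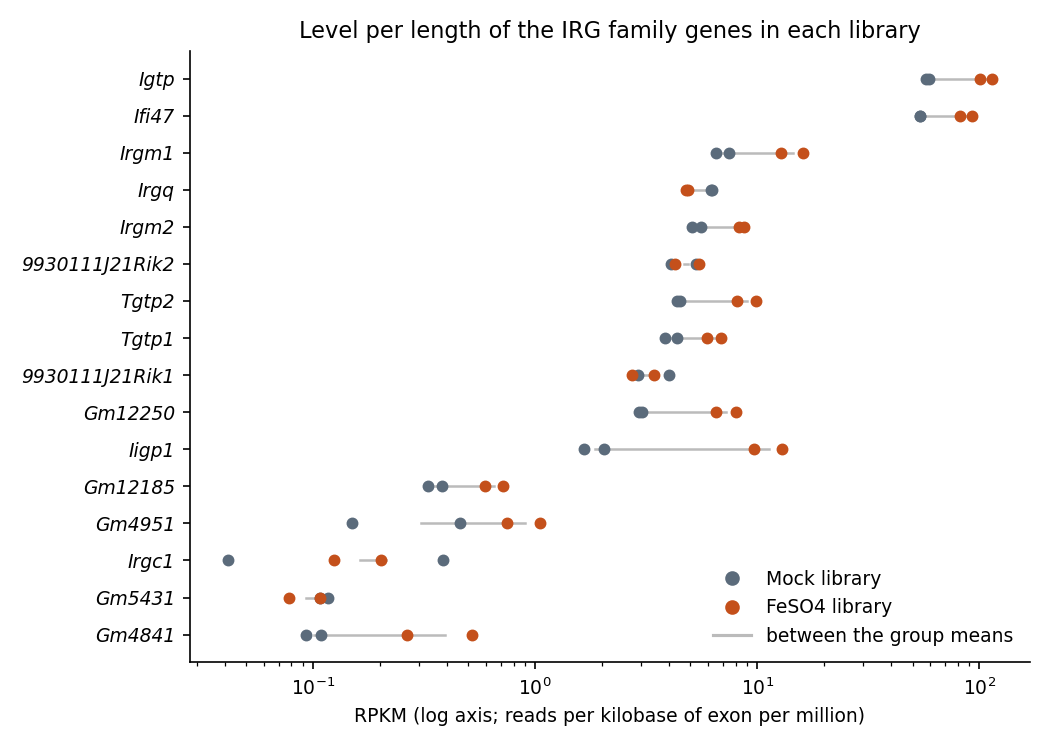
RPKM (log axis) of the 16 tested IRG family genes in each Mock (grey) and FeSO4 (orange) library, with a line between the group means. Igtp and Ifi47 lie near 100 RPKM in FeSO4, and Iigp1 moves from below Gm12250 in Mock to the level of Irgm1 and Tgtp2 in FeSO4.

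In their coding sequences the regulators were more alike than the effectors, the Tgtp copies aside. The 3 regulators were identical at 69.4% to 74.3% of aligned coding bases among themselves. The other pairs, apart from Tgtp1 and Tgtp2, whether of 2 effectors or of an effector and a regulator, were identical at 61.8% to 66.4%. Regulators (log2 fold changes of 0.67 to 1.04) and effectors (0.64 to 2.61) overlapped in their differences between FeSO4 and Mock. Among the members other than the Tgtp copies, few 50-base windows also occur in a transcript of another protein-coding gene. The share was 9.64% for Igtp and 6.83% for Irgm2, mostly with each other, 3.43% for Ifi47, 2.95% for Iigp1 and 0 for Irgm1.

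The 10 further genes of the IRG family were not members, and 9 were tested. By edgeR's quasi-likelihood test 4 of these were higher with FeSO4 (adjusted p under 0.05), 1 was lower and 4 did not pass. Of all tested genes, 10.6% were called higher and 8.89% lower. Gm12250, the gene of Irgb10, went from 8.16 and 7.94 CPM to 21.6 and 17.5 CPM, and rose by 1.28 ± 0.14 on the log2 scale (adjusted p = 1.80e-05). Gm12185 went from 2.12 and 1.84 CPM to 4.00 and 3.32 CPM (log2 fold change 0.88 ± 0.28, adjusted p = 0.0371), and part of its exons overlap Tgtp1 in the GENCODE M1 annotation. Both of these rose with no overlap between the groups.

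Gm4951 and Gm4841 also rose but rest on few reads. Gm4951 had 16 and 51 counts in Mock and 95 and 73 in FeSO4 (log2 fold change 1.55 ± 0.47, adjusted p = 0.0301). Gm4841 had 10 and 12 counts in Mock and 47 and 26 in FeSO4 (1.94 ± 0.60, adjusted p = 0.0341). Irgq, a divergent family member, fell from 38.0 and 38.3 CPM in Mock to 29.1 and 30.0 CPM in FeSO4 (log2 fold change -0.37 ± 0.09, adjusted p = 0.00865). Its call was lost without FeSO4 1.

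The 4 tested genes that did not pass were 9930111J21Rik2 (log2 fold change 0.05 ± 0.13), 9930111J21Rik1 (-0.17 ± 0.15), Gm5431 (-0.27 ± 0.64) and Irgc1 (-0.38 ± 0.85), and the groups overlapped in each. The 2 genes 9930111J21Rik1 and 9930111J21Rik2 were expressed at 13.3 to 38.3 CPM, and 82.9% and 57.3% of their 50-base windows are shared with other genes. The window of 9930111J21Rik1 holds an ISRE match at positions 27 to 36 past its start site. F830016B08Rik had 0 and 1 counts in Mock and 1 and 6 in FeSO4 and was not tested. The number of these genes called was 2 without Mock 1 (1 higher, 1 lower), 3 without Mock 2 (2 higher, 1 lower) and 1 without FeSO4 1 (1 higher, 0 lower). The call of Gm12250 held under all alternatives run, whereas those of Gm4951 and Gm4841 were lost without Mock 1 or without FeSO4 1, that of Gm4841 also without Mock 2, and that of Gm12185 when any 1 of these 3 libraries was left out, with DESeq2 and with scaling by library size only.

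**Figure D4:**
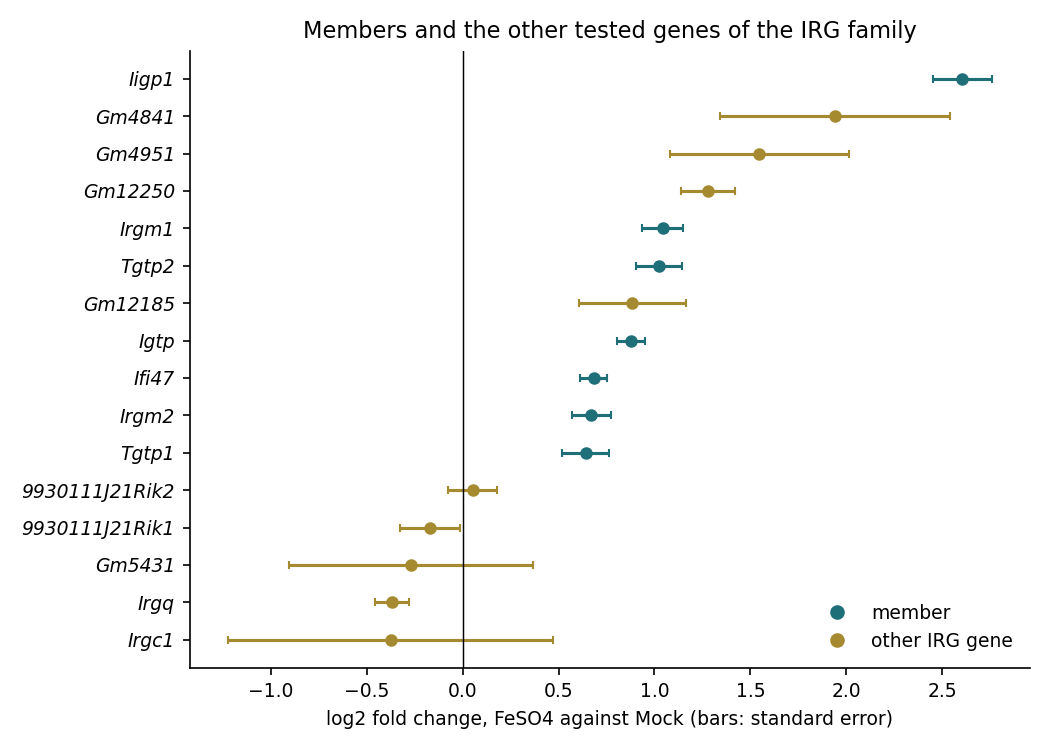
Fitted log2 fold change, FeSO4 against Mock, of the 7 members (teal) and the 9 other tested IRG genes (ochre), with bars for the standard error. Iigp1 lies farthest to the right at 2.61, and Irgq at -0.37 is the gene called lower.

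In the genome the members lie in 3 groups (RefSeq, GRCm38.p6). The group at chr11:48865245-49096987 holds 8 IRG genes in 232 kb, in the order Irgm1, Gm5431, Gm12185, 9930111J21Rik1, Tgtp1, 9930111J21Rik2, Tgtp2 and Ifi47. Of these, 5 were called higher, 4 of them members and the fifth Gm12185, and Gm5431, 9930111J21Rik1 and 9930111J21Rik2 did not pass. The group at chr11:58183843-58222783 holds Gm12250, Igtp and Irgm2 in 38.9 kb, and all 3 were called higher, 2 of them members. The group on chromosome 18, at chr18:60212004-60392634, holds Gm4951, Gm4841, F830016B08Rik and Iigp1, and the 3 that were tested were called higher, 1 of them a member. Since the members were chosen for being higher, these counts are largely fixed by that choice and are not read against the 10.6% of all tested genes called higher.

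The other protein-coding genes within 100 kb of these groups were counted too. Near the group with Irgm1, 3 of 9 such genes were tested and 1 was higher, the overlapping Olfr56, while Trim41 had a log2 fold change of -0.07 ± 0.09. Near the group with Igtp, 5 of 7 were tested and 0 were higher, and Zfp672 was lower (-0.38 ± 0.10, adjusted p = 0.0139), a call lost without Mock 1 and without FeSO4 2. For the same reason IRG genes and their neighbours were not compared.

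The IFN-γ pathway upstream of the family was next examined with a list of 18 genes, all tested. Over all tested genes, 10.6% were called higher and 8.89% lower, the shares to set beside this list and those below. Of the 18, 7 rose, 1 fell and 10 did not pass, and the median log2 fold change was 0.12 beside 0.00 over all genes. The split was 6 higher and 3 lower with scaling by library size only, 7 higher and 0 lower without Mock 2 and without FeSO4 1, and 6 higher and 1 lower without Mock 1. Ifng itself, the gene of IFN-γ, had 106 and 139 counts in Mock and 382 and 299 in FeSO4. It rose from 2.61 and 3.32 CPM to 11.1 and 8.08 CPM, a log2 fold change of 1.69 ± 0.22 (adjusted p = 9.41e-05), in medium that contained an antibody blocking the secreted cytokine in both groups. Tbx21, which encodes the T-bet transcription factor that activates Ifng, rose from 1.48 and 1.31 CPM to 5.57 and 4.13 CPM (1.79 ± 0.28, adjusted p = 0.000498). For both genes the groups did not overlap.

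Of the 4 receptor and kinase genes, 1 was called. Ifngr1, the ligand-binding chain, had a log2 fold change of 0.12 ± 0.07 (adjusted p = 0.249), and Ifngr2, the signalling chain, one of -0.20 ± 0.08 (adjusted p = 0.110). Jak1 fell by 0.21 on the log2 scale, from 573 and 602 CPM to 507 and 511 CPM (SE 0.06, adjusted p = 0.0227), a call lost without Mock 2, without FeSO4 1 and without FeSO4 2, and Jak2 did not pass (-0.11 ± 0.07). None of these receptor and kinase genes was called higher.

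Among the transcription factors of the pathway, Irf1, an IFN-γ-induced factor that binds ISRE, rose by 0.67 ± 0.08 (62.6 and 62.0 CPM to 107.1 and 91.5, adjusted p = 6.26e-05). Irf8, a partner factor, rose by 0.79 ± 0.10 (62.3 and 63.6 CPM to 124.5 and 93.6, adjusted p = 0.000101). Irf9, the DNA-binding part of the type I interferon complex, did not pass (0.07 ± 0.08). The feedback inhibitor Socs1 was level (-0.01 ± 0.07), at 155 to 175 CPM in all libraries. The phosphatase genes Ptpn2 and Ptpn6 also passed, with log2 fold changes of 0.27 ± 0.08 and 0.28 ± 0.06, though the call of Ptpn2 was lost without Mock 1, without FeSO4 1 and with scaling by library size only. Ptpn11, the other phosphatase gene of the list, lay in the opposite direction and did not pass (-0.16 ± 0.07, adjusted p = 0.108). Both its FeSO4 libraries (151.9 and 142.1 CPM) were below both Mock libraries (163.9 and 164.2).

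The guanylate-binding proteins (GBPs) are a second family of IFN-γ-induced GTPases that act with the IRGs on vacuoles. Of 11 listed genes 9 were matched and 7 tested, and all 7 rose, with a median log2 fold change of 1.21 and a range of 0.58 to 2.25. No tested gene was lower by edgeR, either after adjustment or at an unadjusted p under 0.05, and DESeq2 and limma-voom also called 7 higher and 0 lower. Without FeSO4 1 the count was 6, the call of Gbp8 being lost. Gbp2 rose from 17.3 and 20.97 CPM to 84.8 and 72.2 CPM (2.03 ± 0.11, adjusted p = 9.11e-09). Gbp4 rose by 1.21 ± 0.10 (adjusted p = 8.73e-07), Gbp3 by 1.29 ± 0.16 (adjusted p = 5.60e-05) and Gbp7 by 0.73 ± 0.11 (adjusted p = 0.00029). Gbp5 and Gbp6 had at most 10 counts in each library and were not tested.

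Of 23 tested genes on the list of other IFN-γ-induced genes, 12 rose, 0 fell and 11 did not pass, with a median of 0.44. At an unadjusted p under 0.05, edgeR gave 15 higher and 0 lower, and DESeq2 and limma-voom each called 12 higher and 0 lower. Without FeSO4 1, 10 were called. Serpina3g, a protease inhibitor of activated lymphocytes, changed most among the genes of smallest p, from 32.04 and 34.1 CPM to 117.6 and 96.2 CPM (1.69 ± 0.10, adjusted p = 1.85e-08). The antigen presentation genes B2m (0.52 ± 0.06), Tap1 (0.60 ± 0.07) and Psmb8 (0.54 ± 0.06) rose as well, and whether these changes differ from those of the members was not tested.

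The list of type I interferon-stimulated genes, which respond to IFN-α and IFN-β more than to IFN-γ, gave 6 genes that rose, 0 that fell and 15 that did not pass among 21 tested, with a median of 0.66. At an unadjusted p under 0.05 these were 9 and 0, DESeq2 called 4 and 0, and limma-voom called 6 and 0. Oas3, the gene of smallest p, rose from 6.68 and 6.24 CPM to 17.0 and 17.2 CPM (1.40 ± 0.14, adjusted p = 8.66e-06), and the next by p were Bst2 (0.75 ± 0.10), Zbp1 (0.66 ± 0.10) and Isg20 (0.48 ± 0.13). Ifit1, named for having the largest change among those called, had a log2 fold change of 1.68 ± 0.55 (adjusted p = 0.0453). It rests on few reads, with 10 and 29 counts in Mock and 68 and 39 in FeSO4. Its call was lost with DESeq2 and with scaling by library size only. The list gave 3 calls without Mock 1 and 3 without FeSO4 1, and the calls of Isg20 and Ifit1 were lost in both fits. With the replicate number as a block, 5 genes were called and Ifit1 was not. Whether it differed from the IFN-γ-induced lists was not tested.

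Genes of the autophagy conjugation machinery, which is needed for IRG loading onto vacuoles, were listed as a functional partner of the family. Of 12 tested genes 1 rose, 0 fell and 11 did not pass, with a median of 0.03. Of all tested genes, 10.6% were called higher and 8.89% lower. For this list edgeR gave 1 higher and 0 lower at an unadjusted p under 0.05, as did DESeq2 and limma-voom after adjustment. The gene that rose was Gabarapl1 (0.32 ± 0.10, adjusted p = 0.034), a member of the LC3 family, and its call was lost without Mock 1, without Mock 2, without FeSO4 1 and with scaling by library size only. Atg4b (-0.16 ± 0.08), Atg16l1 (-0.17 ± 0.09) and Atg3 (0.15 ± 0.08) did not pass. All these lists were compared on the same 4 libraries as the members, and so they do not give independent evidence about them.

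**Figure D5:**
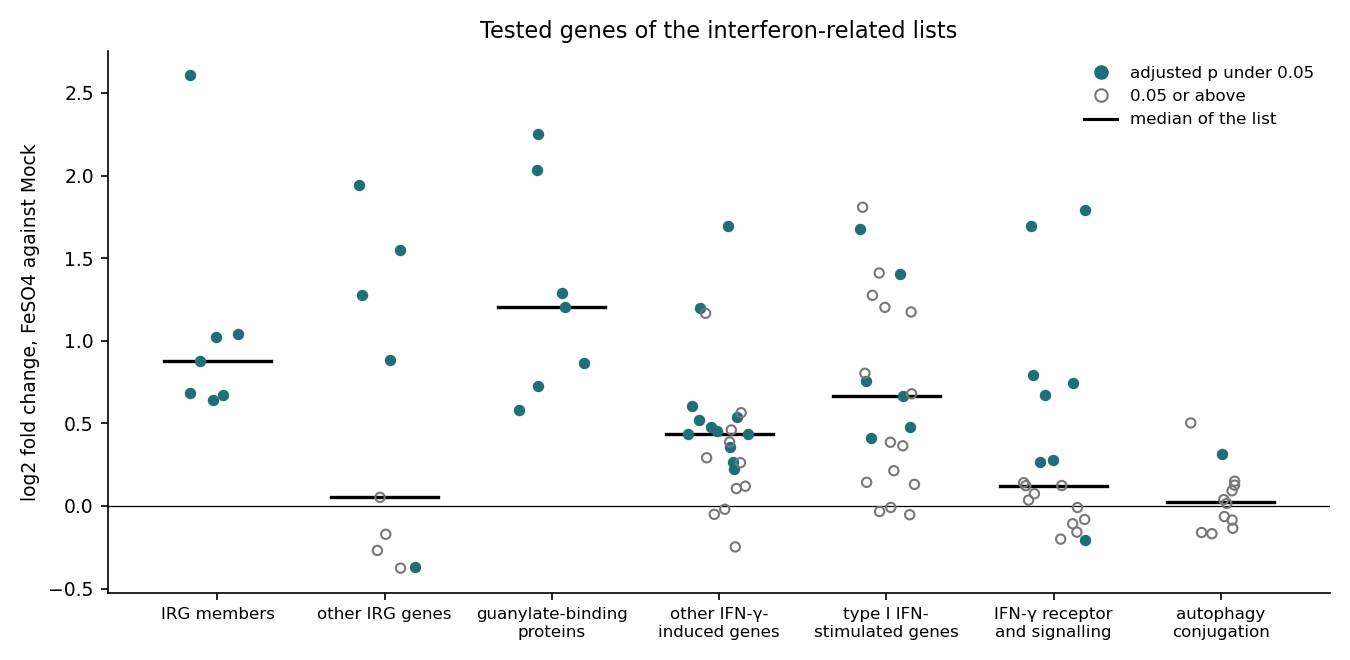
Log2 fold change, FeSO4 against Mock, of each tested gene on 7 lists, with filled points for an adjusted p under 0.05, open points otherwise and bars for list medians. All 7 IRG members and all 7 GBP genes lie above 0, while medians lie at 0.05 for the other IRG genes, 0.12 for IFN-γ signalling and 0.03 for autophagy conjugation.

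Lastly, genes were ranked by how closely their profile over the 4 libraries followed the average of the 7 members, as the root mean square difference of log2 CPM after each gene was centred on its own mean. Of the 9330 genes that averaged 5 CPM or more, the closest were Hsd17b7 (0.04) and Lss (0.05), then Rnase4, Nsdhl, Pdpn, AW112010, Gbp4 and Cldn25 (0.05 to 0.08). Hsd17b7 went from 20.9 and 21.7 CPM to 44.3 and 41.1, and Lss from 38.1 and 41.6 CPM to 83.5 and 78.9. Only Gbp4 among the 8 is on an interferon list used here. With 2 groups of 2 libraries, likeness mostly means a similar fold change, and these genes had log2 fold changes of 0.98 to 1.21.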

How the data were processed

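RNA-seq was compared between 2 FeSO4 and 2 Mock libraries, grouped by their labels. The authors deposited raw read counts per Ensembl gene, not normalized. Per the submitters' processing notes the tools were Trim Galore 0.6.7, STAR 2.7.9a and featureCounts with mm10, whereas the methods name mm9 and DESeq. The strand setting and annotation were not given in the sources used here. In the deposited count table, 5 closing lines held unassigned reads (no feature 4.36 to 6.03%, ambiguous 3.78 to 3.91%, low quality 0.802 to 0.988%, unaligned 1.80 to 2.31%, more than 1 alignment 4.27 to 4.62% of a library) and were left out. No molecular identifiers are mentioned, so limits cover counting error only.

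Counts were tested in R 4.3.3 with edgeR 4.0.16 (filterByExpr, TMM, quasi-likelihood F test with the default fit, Benjamini-Hochberg adjustment over 13732 genes, called at an adjusted p under 0.05). The standard error is the log2 fold change divided by the square root of F. Symbols were matched by Ensembl ID (32799 of 47729). The biological coefficient of variation was 8.24%, and replicates differed by more than sampling noise (chi-square per degree of freedom of 11.3 in Mock and 9.02 in FeSO4). The methods describe 2 pairs of samples but not which libraries form a pair, and the labels tie no replicate number to an experiment, so the block by number was an alternative only.

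The members and lists were chosen with earlier results of these data known. Named are the members, the tested other IRG genes, a preset group of IFN-γ signalling genes, the 4 genes of smallest p from each other list and the 8 genes most like the members. A signalling gene and a marker covered by these rules are not reported here. Olfr56, Trim41, Zfp672, Ptpn2, Ptpn6, Ptpn11, Gbp5, Gbp6, Gbp8, Ifit1, Oas2, Mx2 and the promoter letters were chosen after their values were seen. Alternatives were DESeq2 1.42.0, limma-voom (limma 3.58.1), other scalings, no filter, a replicate block, each library left out, both Tgtp genes summed and, chosen after seeing the data, edgeR's bias-adjusted fit. Promoter positions are GRCm38.p6. Exon lengths and transcript windows come from GENCODE M1.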

Additional observations from a re-analysis of the deposited data

Results flagged for a closer look

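In the lines of unassigned reads, which no comparison used, 3 shares separated the groups, 2 with each FeSO4 library above each Mock library and 1 with each below. Reads with more than 1 alignment made up 4.42% and 4.27% of Mock 1 and 2 and 4.60% and 4.62% of FeSO4 1 and 2, a difference of 0.264 percentage points between group means. Such reads bear on Tgtp1 and Tgtp2, whose copies share most of their sequence, and which genes they came from was not tested. Reads set aside for low alignment quality were 0.802% and 0.929% in Mock and 0.978% and 0.988% in FeSO4, a difference of 0.118 percentage points. Reads outside any annotated feature were the lower share, with 5.31% and 6.03% in Mock and 4.36% and 5.21% in FeSO4, a difference of -0.887 percentage points.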

How the results depend on the processing

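No member changed direction under any alternative. Log2 fold changes ranged from 2.38 to 2.81 for Iigp1, 0.79 to 0.97 for Igtp (and for the median of the members), 0.87 to 1.21 for Irgm1, 0.60 to 0.75 for Irgm2, 0.60 to 0.77 for Ifi47, 0.54 to 0.74 for Tgtp1 and 0.88 to 1.17 for Tgtp2. The counts of both Tgtp genes added gave 0.84. Scaling by library size only gave 939 higher genes and 0 autophagy genes called. Leaving out 1 library at a time gave 927 to 1159 higher and 799 to 1030 lower genes, 1 to 5 other IRG genes, 3 to 5 type I interferon-stimulated genes and 0 to 1 autophagy genes, and the count of all genes fell furthest without FeSO4 1 (927 and 799). Fewer libraries entered those fits.

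With the replicate number as a block, 1743 genes were higher and 1467 lower, 2653 of these 3210 calls being shared with the unblocked fit. The block left 5 type I interferon-stimulated genes called in place of 6 and did not change the counts of the other lists. Same-numbered libraries deviated together with a correlation of 0.03 over all genes and 0.22 over genes above 10 CPM, and 2 pairs cannot show pairing. The bias-adjusted fit of edgeR gave 1491 higher and 1259 lower genes. Each SD comes from a single pair of libraries, and genes such as Gm4841 and Gm4951 rest on fewer than 100 counts per library.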
